A study of Mus musculus with 32 samples.

Results

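Doc2g, Pcdh21, Th, Sp8, Dlx1, Trh, Scgn and Nmb are genes that mark cells of the olfactory bulb. Every probe with one of these symbols was taken whatever its signal, but the 8 symbols were proposed with earlier results of these data known. The 8 genes had 11 of the 25697 probes on the array and were 8 of its 18138 gene symbols. Doc2g and Pcdh21 are treated below as mitral and tufted cell genes, and Th, Sp8, Dlx1, Trh and Scgn as interneuron genes. Nmb belonged to neither class.

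Gene expression was measured in the frontal cortex (FCtx) of 32 female mice, hybrids of the C57BL/6J and FVB/NJ strains in the F1 generation, with 1 Illumina MouseRef-8 v2.0 array per mouse. The ethanol-treated mice (n = 20) could choose between bottles of 20% ethanol and water in dark-phase sessions over 20 days. The controls (n = 12) are called matched, and what they drank is not given in the sources used here. The tissue was the dorsal part of a rostral slice that, by the dissection described, held no olfactory bulb, and the mice were in early adulthood, with no age in weeks given in the sources used here. The arrays lay on 4 chips of 8. Chips 1 and 2 held only ethanol-treated mice and chip 4 only controls, while chip 3 was mixed, its 4 ethanol-treated mice sitting at odd positions (counted from A to H) and its 4 controls at even ones. Treatment and position therefore coincided on chip 3, and the mice at odd positions of a chip had the lower numbers.

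The olfactory bulb is the relay for smell at the front of the brain. Its projection neurons, the mitral and tufted cells, receive input from axons of sensory neurons in the nose and send axons to olfactory cortex. They are surrounded by granule and periglomerular interneurons, which keep arriving throughout life as neuroblasts that migrate forward from the wall of the lateral ventricle. Pcdh21, now named Cdhr1, encodes a cadherin of mitral and tufted cells and photoreceptors, and Doc2g encodes a protein with C2 domains that is abundant in the same bulb neurons. Th encodes tyrosine hydroxylase, the rate-limiting enzyme of catecholamine synthesis, which dopaminergic periglomerular cells contain. Sp8 and Dlx1 encode transcription factors of interneuron development, Scgn the calcium-binding protein secretagogin, Trh the precursor of thyrotropin-releasing hormone and Nmb the peptide neuromedin B. Dlx1 is also found in cortical interneurons, and Th and Trh in some neurons outside the bulb. In bulk tissue, fewer cells of a type and less RNA per cell cannot be told apart.

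The probes are the pieces of transcript that every value below rests on, so the 30 bases at the start of the brightest probe of each gene are shown here, 5′ to 3′ and in the letters of the deposited table.
Pcdh21: gtcctcatctggaggtctgtagtctctggc
Doc2g: acgagtgcccctgaggaagctggtgccaaa
Dlx1: cgaccacagaacacaagtcatcaccctgaa
Trh: gccccatatggcaagactgacctggtataa
Scgn: ccagaggcagccatgatcttgtcccatggg
Sp8: ggagacagagggggtcaagctaacaaaagc
Th: ggatgagctgcacaccctgacccaagcact
Nmb: gtggggacagcaccccctaacaccccgagg
Each full probe was 50 bases long. The table placed the Pcdh21 probe on chromosome 14 from base 4110 of its transcript, and the Doc2g probe on chromosome 19 from base 647. The Dlx1 probe lay on chromosome 2 and the Trh probe on chromosome 6. The Th and Nmb probes were both on chromosome 7, Sp8 was on chromosome 12 and Scgn on chromosome 13. The 8 genes thus came from 7 chromosomes. The build behind these placements is not named in the table, and the exon or untranslated region that a probe lies in was not analysed here.

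The sequences before the transcription starts were compared because the 8 genes moved together across mice, as described below. The RefSeq promoter windows of assembly GRCm38.p6 ran from 250 bases before a start to 50 bases after it. All 8 genes had at least 1 window and together they had 10. Capitals mark the searched motifs, which were TGACGTCA (cAMP response element), GGGCGG (GC box), TAATTA (homeodomain) and CANNTG (E-box), read on both strands, and no matches overlapped. The windows of Pcdh21 (chr14:37098298-37098597, minus strand) and Th (chr7:142899946-142900245, minus strand) are shown as 1 example of each cell class.
Pcdh21: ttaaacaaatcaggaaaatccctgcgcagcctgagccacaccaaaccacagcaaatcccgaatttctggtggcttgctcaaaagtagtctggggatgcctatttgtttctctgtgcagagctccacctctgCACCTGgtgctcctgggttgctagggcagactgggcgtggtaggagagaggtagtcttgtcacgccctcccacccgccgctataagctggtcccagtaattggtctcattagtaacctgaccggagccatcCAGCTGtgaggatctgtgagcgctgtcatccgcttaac
Th: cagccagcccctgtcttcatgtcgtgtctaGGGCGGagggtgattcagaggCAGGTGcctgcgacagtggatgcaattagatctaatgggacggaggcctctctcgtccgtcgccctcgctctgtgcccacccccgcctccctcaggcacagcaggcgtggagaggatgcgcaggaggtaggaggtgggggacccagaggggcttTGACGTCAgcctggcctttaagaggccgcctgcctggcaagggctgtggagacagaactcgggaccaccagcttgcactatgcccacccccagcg
The window of Th held 1 TGACGTCA, a motif present in 1.79% of all 32851 windows of this length, and no other window of the 8 genes held it. A GC box stood in 6 of the 10 windows, against 35.7% of all windows, and an E-box in 6 of 10, against 72.3%. TAATTA stood in 1 of 10, a window of Sp8, against 5.29%. No motif was thus shared by all 8 genes in these windows.

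The values are mean bead signals, in arbitrary linear units, and for the tests a variance-stabilized and quantile-normalized value on the log2 scale. A probe counted as detected on an array at a detection p-value below 0.01, and was tested if detected on at least 24 of the 32 arrays, which 10187 probes were. The brightest probe of each of the 8 genes passed. The other 3 probes, of Doc2g and Scgn, were detected on 19 to 21 arrays and were not tested. Between 10644 and 11544 probes were detected per array in ethanol-treated mice and between 9480 and 11413 in controls. The dimmest array was that of control C66 at the last position of chip 4. The letter A or C before a number is the name of an ethanol-treated mouse or a control. Genes of dorsal cortex neurons such as Slc17a7, the vesicular glutamate transporter, and Tbr1 were detected on all 32 arrays, while none of the 5 choroid plexus genes was detected on more than 3.

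Pcdh21 had the largest spread between mice of any tested probe. Its signal was lowest at 149.7 in C66, had a median of 1184 and was highest at 3737 in ethanol-treated mouse A29 on chip 2. Pcdh21 was not detected on the array of C66, and over the other 31 arrays, from 201.6 in C63, the range was 18.5-fold. Mice high and low for Pcdh21 stood side by side in both treatments. In ethanol-treated mice the signal ran from 231.1 to 3737 with a median of 1262, and in controls from 149.7 to 1726 with a median of 763, so the groups overlapped over most of their range. The SD between mice within chip and treatment was 1.30 on the log2 scale, rank 1 of 10187 probes, where the median probe had 0.146 and the 95th percentile was 0.244. Doc2g, the other mitral and tufted gene, ranged from 148.7 through a median of 314.6 to 872, and its SD of 0.71 was rank 4.

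Among the interneuron genes the spread was large for Trh and Dlx1 and smaller for Scgn, Sp8 and Th. Trh ranged from 138.1 through 399.2 to 881.5 (SD 0.67, rank 5), and Dlx1 from 284 through 820.9 to 2232 (SD 0.53, rank 13). Scgn ranged from 142.3 through 242 to 432.5 (SD 0.42, rank 22). Over the arrays on which each was detected, Dlx1 covered a 7.86-fold range, Trh 4.20-fold and Scgn 2.18-fold. Sp8 ranged from 132.3 through 216.8 to 351.1 (SD 0.32, rank 134) and Th from 146.4 through 219.7 to 358.5 (SD 0.30, rank 189). The SD of Th was above the 95th percentile of all probes. Nmb had the narrowest spread of the 8 genes, from 149 through 212.3 to 308.3 (SD 0.24, rank 557), and was just below that percentile.

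**Figure D1:**
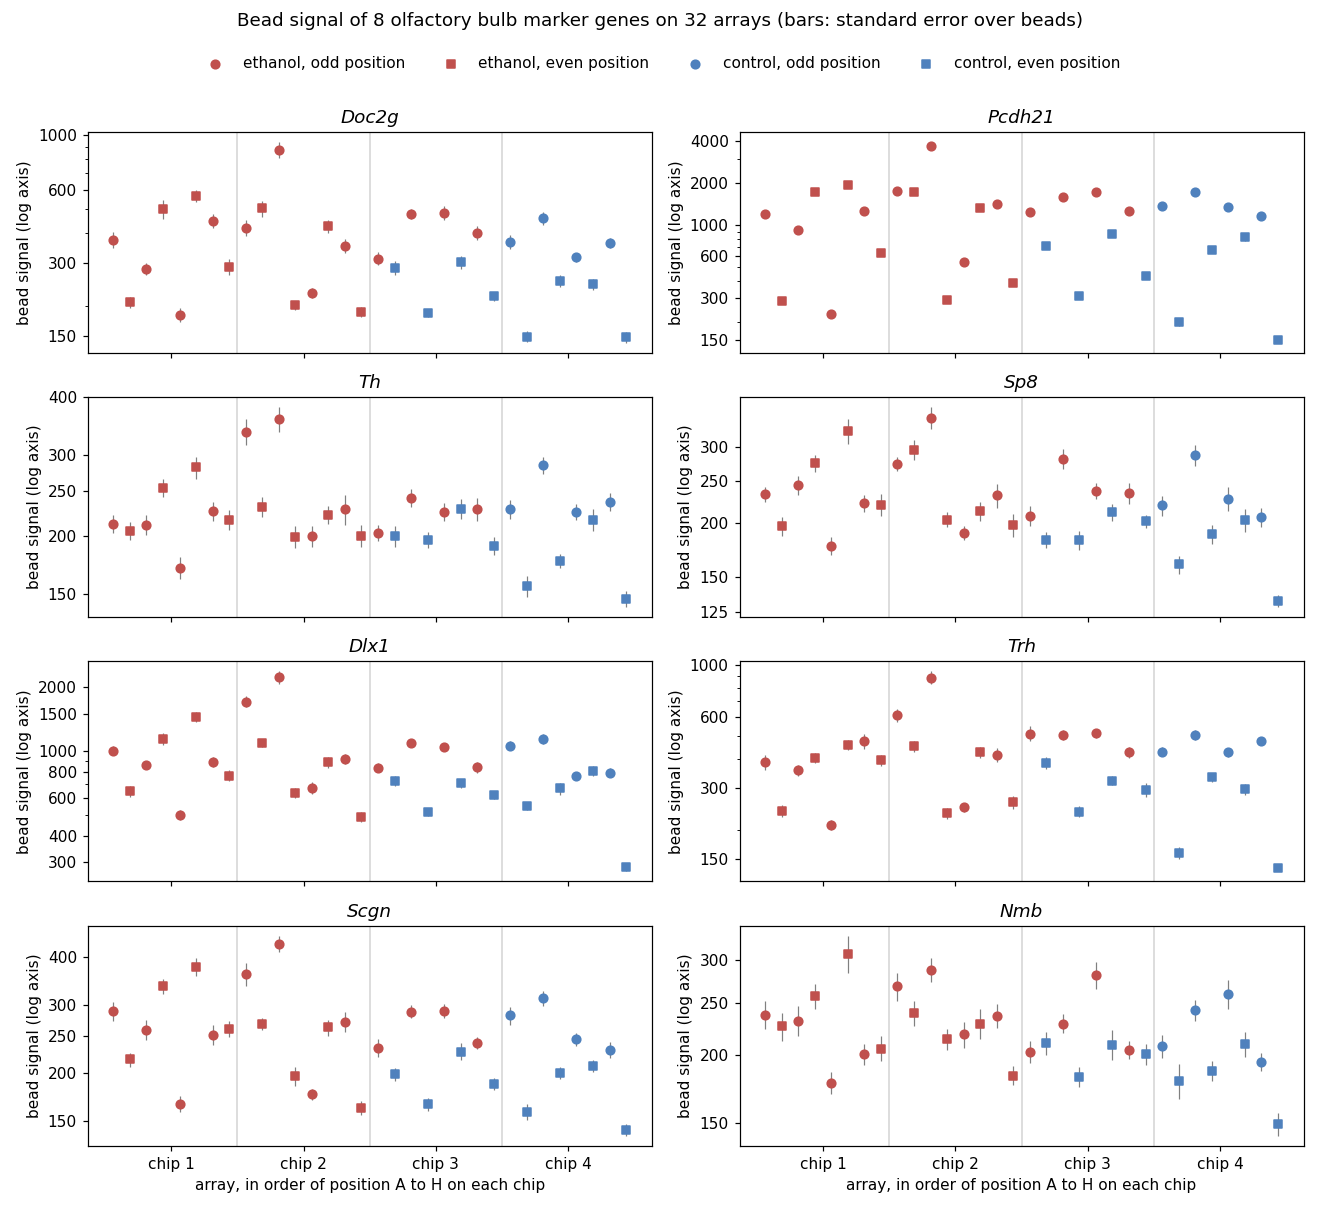
Bead signal of the brightest probe of each gene (vertical log axis, arbitrary units) for 32 mice, 1 point per array, in order of chip and position. Bars are the standard error over beads on 1 array. Pcdh21 runs from 149.7 to 3737 and the control at the end of chip 4, C66, is the lowest point in every panel.

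The only error measured within an array was that over its beads, and error from labelling or hybridization was not measured apart from the mice. The standard error over beads was a median of 4.74% of the Pcdh21 signal, while the signal varied between mice with a coefficient of variation of 67.2%. For Nmb, with the smallest spread, the figures were 5.15% and 15.9%. C66 had the lowest signal for all 11 probes of the 8 genes, and A29 the highest for 10 of 11. After normalization C66 was lowest for 4 of the 11 probes and A29 highest for 7. The part of the dimness of the C66 array in its low signals was not tested further. At the lower end Pcdh21 was undetected on C66 alone. Doc2g, Trh, Scgn, Sp8, Th and Nmb came close to background, each being undetected on 2 to 8 arrays, and low values there understate a difference. Dlx1 was the only one of the 8 detected on all 32.

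**Figure D2:**
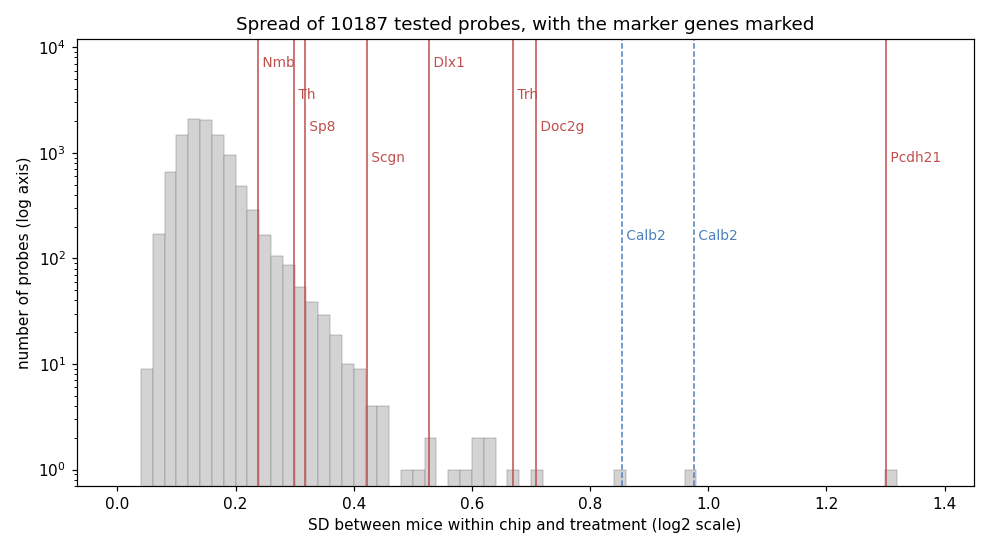
Number of the 10187 tested probes (vertical log axis) by the SD between mice within chip and treatment on the log2 scale. Solid lines mark the 8 genes and dashed lines the 2 tested probes of Calb2. Pcdh21, at 1.30, lies to the right of every other probe.

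The 8 genes varied together from mouse to mouse. With values centred within chip and treatment, all 28 pairs were positively correlated over the 32 arrays, and all 28 passed a permutation test (100000 permutations within chip and treatment, two-sided) after Benjamini-Hochberg adjustment over the pairs. The median Pearson r was 0.867 and the range 0.638 to 0.964. Doc2g and Pcdh21, which share a cell type, had r = 0.945 (rho 0.958, permutation p = 1e-05, the smallest the permutations can give, adjusted 1.2e-05). The lowest was Trh with Nmb at r = 0.638 (rho 0.602), with a permutation p of 0.00069. Leaving out for each pair the 2 arrays farthest from the median of its first gene gave r between 0.564 and 0.954. Since the 8 genes were proposed with earlier results known, these p-values are no independent evidence. Arrays of a chip share a hybridization, and the array itself is common to both genes of a pair.

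Pairs between the mitral and tufted genes and the interneuron genes were not set apart from pairs of interneuron genes by their correlations. The 10 pairs between the classes had r between 0.829 and 0.944 with a median of 0.905, and the 10 pairs of interneuron genes had r between 0.801 and 0.964 with a median of 0.878. Both ranges overlapped. Within the interneuron class Dlx1 and Scgn were closest, at r = 0.964, and Trh was closer to Pcdh21 (r = 0.944) than to any interneuron gene (r = 0.801 to 0.884). The differences between such coefficients were not tested. The mean scaled value of Doc2g and Pcdh21 correlated with that of the 5 interneuron genes at r = 0.951. Nmb stood apart as the least correlated gene, its 7 pairs having r between 0.638 and 0.795 with a median of 0.744.

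**Figure D3:**
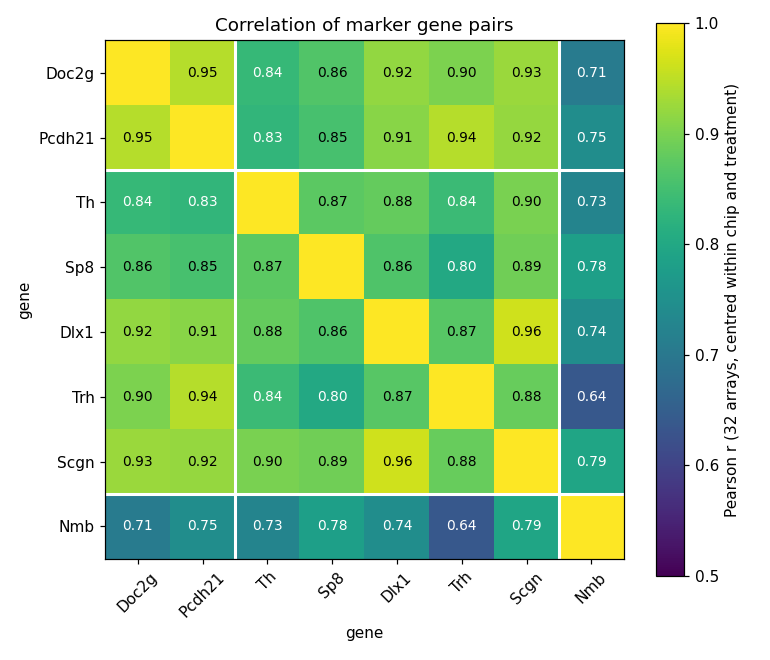
Pearson r of each pair of the 8 genes over 32 arrays, values centred within chip and treatment (colour scale and numbers). White lines divide the 2 mitral and tufted genes, the 5 interneuron genes and Nmb, whose row holds the lowest values (0.64 to 0.79).

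The correlation was present within each chip of a single treatment and in each treatment. The median r over the 28 pairs was 0.912 on chip 1, 0.903 on chip 2 and 0.918 on chip 4, with 8 arrays each. It was 0.868 in ethanol-treated mice and 0.897 in controls. Centring also on odd or even position gave 0.849, and leaving out C66 gave 0.859. The number of probes detected on an array correlated with the 8 genes at r between 0.183 and 0.409, and none of these 8 relations passed a permutation test (lowest adjusted p = 0.20). Without the 2 arrays farthest in that number, C66 and A39, r was between -0.0021 and 0.173.

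The steps in which the genes moved differed. For each log2 unit of Pcdh21, Doc2g moved by 0.51, Trh by 0.49 and Dlx1 by 0.37 log2 units, all on the normalized scale. Scgn followed with 0.30, Sp8 with 0.21, Th with 0.19 and Nmb with 0.14. These slopes are descriptions of 32 arrays, and those of the dimmer genes are compressed by background. The probes of 1 gene also moved together. The 2 other Scgn probes had r = 0.932 and 0.929 with the brightest one, and the second Doc2g probe, which starts at base 1099 of the transcript, had r = 0.858.

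**Figure D4:**
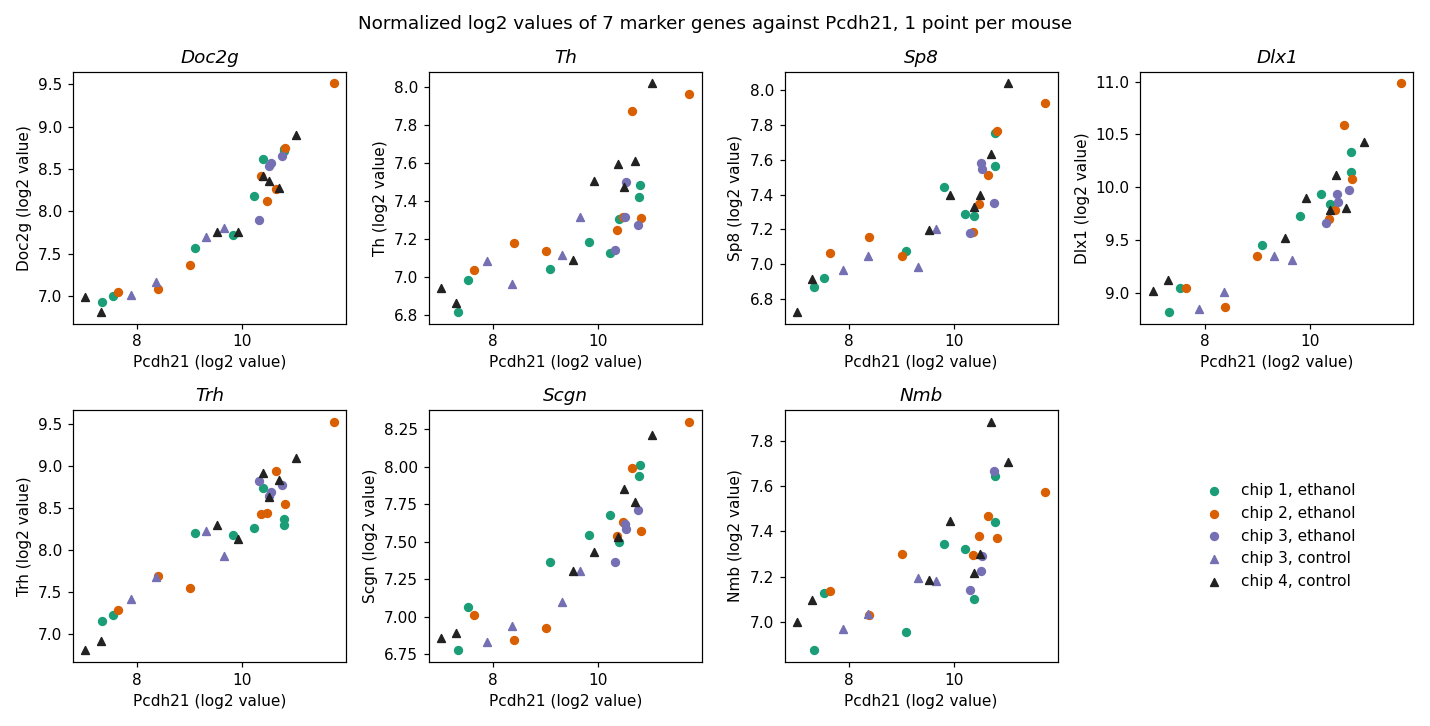
Normalized log2 values of 7 genes against Pcdh21, 1 point per mouse, with colour for the chip and shape for the treatment. Every panel rises from left to right. The r values, centred within chip and treatment, run from 0.746 (Nmb) to 0.945 (Doc2g).

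The first comparison asked whether the bulb genes differed between ethanol-treated mice and controls. Over all 32 arrays none of the 8 genes passed the limma test at an adjusted p below 0.01, whereas 8.02% of the 10187 probes did. At an unadjusted p below 0.05 the count was also 0 of 8, against 31.8% of all probes. Pcdh21 was 9.85 ± 1.25 on the log2 scale in ethanol-treated mice (SD, n = 20) and 9.30 ± 1.35 in controls (SD, n = 12), a difference of 0.56 (SE 0.42, 95% interval -0.29 to 1.41, limma adjusted p = 0.375). Doc2g differed by 0.34 (SE 0.23) and Trh by 0.22 (SE 0.22). The other 5 genes differed by -0.02 to 0.24. The intervals leave room for differences of more than 1 log2 unit in Pcdh21.

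Chip 3 was the only chip that held both treatments. There 5 of the 8 genes were higher in ethanol-treated mice at an adjusted p below 0.01, against 2.42% of all probes called in either direction. The Pcdh21 signals of the 4 ethanol-treated mice were 1247, 1582, 1725 and 1268, and those of the 4 controls 709.5, 311, 863.1 and 431.1. The groups did not overlap. The difference was 1.72 on the log2 scale (SE 0.27, 95% interval 1.15 to 2.30, limma adjusted p = 0.00286), or 3.30-fold. With chip as a block over all 32 arrays the differences were the same, since only chip 3 held both treatments, but the spread came from every chip. In that limma fit 0 of the 8 genes were called, against 0.0589% of all probes. The SE of Pcdh21 was 0.81 there (limma adjusted p = 0.233), and the lowest adjusted p of the 8 genes was 0.207. None of the 5 calls made with the spread of the 8 mice of chip 3 alone held there. Doc2g, Trh, Dlx1 and Pcdh21 had an unadjusted limma p below 0.05 in the block fit (0.0304, 0.0342, 0.0342 and 0.0395), against 19.4% of all probes. The other genes did not.

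Doc2g had signals of 312.7, 477.8, 481 and 399.3 in the ethanol-treated mice of chip 3 and of 287.3, 187.8, 302.2 and 218.8 in its controls, and rose by 0.99 (SE 0.18, limma adjusted p = 0.00475). Trh had 511.6, 504.1, 513.1 and 426.1 against 383.9, 239.3, 323 and 295.9, and rose by 0.92 (SE 0.13, limma adjusted p = 0.0021). In both genes every ethanol-treated mouse was above every control. Dlx1 rose by 0.73 (SE 0.11, limma adjusted p = 0.00274), with signals of 836 to 1096 against 517.3 to 725.1. Scgn rose by 0.53 (SE 0.10, limma adjusted p = 0.0074), with 231.9 to 289.4 against 165.9 to 227.2. These 5 genes were without overlap between the groups, against 15.2% of all probes.

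Sp8, Nmb and Th did not pass on chip 3, with differences of 0.36 (SE 0.09, limma adjusted p = 0.0289), 0.24 (SE 0.10) and 0.19 (SE 0.09). The 2 untested Scgn probes differed by 0.51 and 0.56 (exact two-sided permutation p = 0.0286 each, the smallest that 4 against 4 mice allow). The second Doc2g probe differed by only 0.08 (exact permutation p = 0.60), so it did not show the difference of the brighter probe. This second probe was detected on only 2 of 4 arrays of each treatment on chip 3, and values near background understate a difference. The calls of chip 3 rested on few arrays. Leaving out A49 left 1 gene called, and leaving out A47, C54 or C56 left 3. Normexp background correction left 0, with all 8 differences still positive (limma adjusted p = 0.0103 to 0.171). The number of all probes called also fell in each of these runs, with the counts given in the closing section.

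Outside chip 3 none of the 8 genes passed the test. Ethanol-treated mice of chips 1 and 2 minus controls of chip 4 gave log2 differences of -0.11 to 0.14, with 4 genes above and 4 below 0 and 0 of 8 called, against 11.5% of all probes. None of the 8 had an unadjusted p below 0.05 there, against 36.1% of all probes. Pcdh21 differed by 0.14 (SE 0.53). A limma term for the treatment difference on chip 3 minus that between chips 1 and 2 and chip 4 was positive for all 8 genes, 0.30 to 1.58, and called none (lowest unadjusted p = 0.0606, adjusted p 0.225 to 0.436), against 2.51% of all probes.

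Since treatment and position coincided on chip 3, the mice at even and odd positions were compared on the other chips, where treatment does not vary within a chip. Even minus odd was negative for all 8 genes over the 3 chips together, from -0.14 (Nmb) to -1.09 (Pcdh21) on the log2 scale, with 12 arrays on each side and chip as a block. The sign was not the same on every chip, and the difference between chips 1 and 2 was not tested. On chip 1 the difference was positive for 7 of the 8 genes, between 0.11 and 0.22, and -0.05 for Trh, whereas on chips 2 and 4 it was negative for all 8. None was called by limma over the 3 chips, against 2.78% of all probes. Pcdh21 differed by -1.09 (SE 0.46, limma adjusted p = 0.119) and Trh by -0.67 (SE 0.23, limma adjusted p = 0.0552). For Trh 0 of 12 mice at even positions lay above the median of the odd positions. At an unadjusted p below 0.05, 5 of the 8 genes passed, against 28.3% of all probes.

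On chip 4, where all 8 mice were controls, the split by position was wide. The Pcdh21 signals at the odd positions were 1372, 1726, 1354 and 1169, and at the even positions 201.6, 667.4, 816.4 and 149.7. The sides did not overlap, and the difference was -2.21 (SE 0.51, limma adjusted p = 0.0831). Trh had 428.6, 505, 426.4 and 474.5 at odd positions and 160, 333.4, 297 and 138.1 at even ones, a difference of -1.33 (SE 0.28, limma adjusted p = 0.0749). Doc2g differed by -1.16 (SE 0.20, limma adjusted p = 0.0552) and Scgn by -0.72 (SE 0.15). These 4 genes were without overlap between odd and even positions, against 8.59% of all probes, and 0 of 8 were called in a comparison that called 0% of all probes (all 8 at an unadjusted p below 0.05, against 16.6%).

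The size of the position difference on chip 4 was at least that of the treatment difference on chip 3 in Pcdh21, Doc2g, Trh, Scgn, Sp8, Th and Nmb, and the sides ran the same way, odd positions being high on both chips. Dlx1 was the exception, with -0.64 against 0.73. The difference in size between these chips was not tested. On chips 1 and 2 together, all of ethanol-treated mice, even minus odd was -0.03 to -0.53 for the 8 genes. There 0 were called, against 0.0491% of all probes, and 0 had an unadjusted p below 0.05, against 20.4%. On chip 2 the differences ran from -0.17 to -1.16, so for every gene but Trh the negative sign over both chips came from chip 2 alone. On each of these chips alone 0 of 8 were called, against 0% of all probes. At an unadjusted limma p below 0.05, 0 of the 8 genes passed on chip 1, against 971 of the 10187 probes. On chip 2, 3 of the 8 genes passed, against 1579 of the 10187 probes. Without overlap between the sides were 0 of 8 on chip 1, against 5.4% of all probes, and 0 of 8 on chip 2, against 8.47%. A limma term for the position difference in controls minus that in ethanol-treated mice called 0 of 8, against 0% of all probes (lowest unadjusted p = 0.0412, adjusted p 0.842 to 0.939). It was negative for all 8, from -0.30 to -1.68. Trh, Sp8 and Th had an unadjusted p below 0.05 for it, against 5.65% of all probes. On chip 3 treatment, position and order of the mice cannot be told apart.

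**Figure D5:**
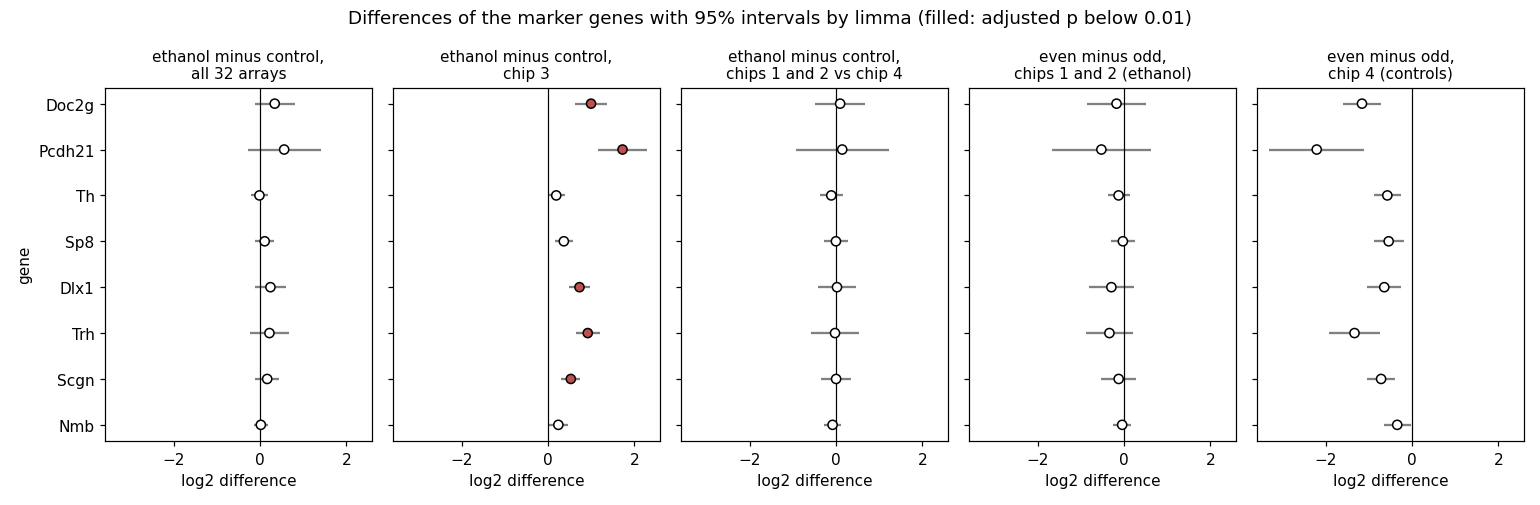
Differences of the 8 genes on the log2 scale (points) with 95% intervals by limma (bars) in 5 comparisons, filled where the adjusted p is below 0.01. The 5 filled points all lie on chip 3, and Pcdh21 reaches 1.72 there and -2.21 between even and odd positions of chip 4.

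No difference between chips of the same treatment passed the test in the 8 genes. Chip 2 minus chip 1 in ethanol-treated mice was -0.01 to 0.39 (0 of 8 called, against 0.00982% of all probes). Chip 4 minus chip 3 in controls was positive for all 8, from 0.26 to 0.74, with 0 of 8 called, against 3.28% of all probes, and 0 of 8 without overlap, against 7.5%. The controls of chip 3 all sat at even positions. Dlx1 came nearest, with 0.58 (SE 0.20, limma adjusted p = 0.0709).

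The genes most like the 8 were ranked over 7918 other tested genes by their correlation with the 2 class means, centred within chip and treatment over 32 arrays. The closest to Doc2g and Pcdh21 was Calb2, which encodes calretinin, a calcium-binding protein of bulb and cortical interneurons, at r = 0.971. Reln, encoding the secreted glycoprotein reelin that mitral cells and cortical neurons make, followed at 0.952, then Cacng5 at 0.9499, Gng4 at 0.914 and Cbln1 at 0.905. Aqp1, Spp1, Ptpro, Gpsm1 and Pcbp3 completed the 10, down to 0.883. The closest to the interneuron genes were Cacng5 at 0.952, Meis1 at 0.942, Calb2 at 0.929, Gng4 at 0.923 and Reln at 0.919, and the others were Ptpro, Cbln1, Gpsm1, Pcdh20 and Pcbp3. The lists shared 8 of 10 genes, and the median r of all 7918 genes with the mitral and tufted mean was 0.01. Calb2 had the next largest spread of all probes after Pcdh21, with an SD of 0.98 and 0.85 for its 2 probes and a 21.4-fold range of signal for the brighter one.

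Other genes of the bulb were taken from fixed lists. The list of further mitral and tufted genes held 9 symbols, among them Cdhr1, which is the current name of Pcdh21. Of the 9 symbols 7 were on the array and only Reln was tested. Tbx21, a transcription factor known in the forebrain from mitral and tufted cells, was detected on 1 array and Eomes on 8, while Lhx1, Lhx5, Ebf3 and Nts were detected on 0. The summed signal of these 7 genes ran from 2627 to 5782 in ethanol-treated mice and from 1511 to 4083 in controls.

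The list of further interneuron and neuroblast genes held 22 symbols, among them Penk and its older name Penk1. Of the 22 symbols 16 were on the array and 6 were tested. Dcx, encoding doublecortin of migrating neuroblasts, was higher in ethanol-treated mice over all arrays by 0.53 (SE 0.14, limma adjusted p = 0.0058), and was the only one of the 6 called, against 8.02% of all probes. On chip 3 Calb2 rose by 1.36 (SE 0.25, limma adjusted p = 0.00534) and Meis2 by 0.40 (SE 0.08, limma adjusted p = 0.0059), which made 2 of 6 called, against 2.42% of all probes. The fit over all arrays that called Dcx had no chip term. With chip as a block over all arrays 0 of the 6 were called, against 0.0589% of all probes, so none of these calls held there. Ethanol-treated mice of chips 1 and 2 minus controls of chip 4 also gave 0 of 6 called, against 11.5%. Even minus odd on chips 1, 2 and 4 was negative for all 6, with a median of -0.37, against 0.00 over all probes, and 0 were called, against 2.78%. On chip 1 alone it was negative for 3 of the 6. Of the 6, 5 correlated with the mitral and tufted mean at r of 0.703 to 0.971, and Etv1 had r = -0.382. The summed signal of the 16 genes ran from 6732 to 18890 in ethanol-treated mice and from 3768 to 11560 in controls.

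The genes of olfactory sensory axons and of other catecholamine neurons were unevenly detected. Omp, the olfactory marker protein of sensory neurons, was detected on 0 arrays and Fabp7 on 1. Frzb was detected on 26 arrays, with signals from 165.5 to 265.1. S100a5, also known from sensory neurons, was detected on 24 arrays with signals from 143.2 to 544.7, and its SD of 0.62 was rank 7 of all probes. It correlated with the mitral and tufted mean at r = 0.689. The transporter genes Slc6a3 and Slc18a2 were detected on 1 and 0 arrays, and Dbh and Pnmt on 0. Ddc, encoding the decarboxylase of dopamine and serotonin synthesis, was detected on 23 arrays, and Gch1, whose enzyme starts the synthesis of the cofactor of tyrosine hydroxylase, on 24, with signals of 155.3 to 254.8 and 160.2 to 252.6. None of the 3 tested genes of these lists was called on all arrays, against 8.02% of all probes, or on chip 3, against 2.42%.

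Cortical, striatal and oligodendrocyte genes did not follow the bulb genes in most cases. The 7 tested dorsal cortex genes correlated with the mitral and tufted mean at r of -0.356 to 0.310, the 4 striatal genes at -0.498 to 0.020 and the 6 oligodendrocyte genes at -0.397 to 0.067. The 6 cortical interneuron genes were split. Gad1 and Slc32a1, which make and package GABA, had r = 0.847 and 0.783. All the others were negative. Pvalb, the parvalbumin gene, had r = -0.772 and Sst, the somatostatin gene, -0.458, while Npy had -0.289 and Vip -0.233.

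Genes from the lists of other cell types also differed on chip 3. Ethanol minus control was negative for 6 of 6 oligodendrocyte genes, with a median of -0.38, against 0.00 over all probes. Only 1 of the 6 was called, against 2.42% of all probes, and this was Cnp, which fell by 0.63 (SE 0.13, limma adjusted p = 0.00971). Of the 7 tested dorsal cortex genes 4 differences were negative and 3 positive, with a median of -0.03, and 2 were called, against 2.42% of all probes. Slc17a7 and Tbr1 fell by 0.45 (SE 0.08, limma adjusted p = 0.00398) and by 0.58 (SE 0.12, limma adjusted p = 0.00994). Of the 6 tested cortical interneuron genes 5 differences were positive and 1 negative, with a median of 0.16. Only 1 of these 6 was called, against 2.42% of all probes. It was Gad1, which rose by 0.58 (SE 0.10, limma adjusted p = 0.00344) and correlated with the mitral and tufted mean at r = 0.847. Over all arrays 3 of the 7 dorsal cortex genes were lower in ethanol-treated mice, against 8.02% of all probes called in either direction, and the differences of 3 others were positive and not called. Those called were Tbr1 by 0.39 (SE 0.07), Slc17a7 by 0.25 (SE 0.06) and Fezf2 by 0.20 (SE 0.05), with limma adjusted p of 0.000376, 0.00581 and 0.00685. That fit had no chip term. With chip as a block over all arrays 0 genes of the dorsal cortex, oligodendrocyte and cortical interneuron lists were called, against 0.0589% of all probes. Between chips 1 and 2 and chip 4, 2 of the 7 dorsal cortex genes were called lower in ethanol-treated mice, against 11.5% of all probes called in either direction. Over all arrays the summed signal of the 6 oligodendrocyte genes ran from 16320 to 44420 in ethanol-treated mice and from 6566 to 31810 in controls. The sum of 10 dorsal cortex genes, of which Neurod6 was detected on 0 arrays, ran from 8022 to 11710 and from 5128 to 12170. The sum of 8 cortical interneuron genes, of which Gad2 and Lhx6 were detected on 0 arrays, ran from 21490 to 30030 and from 9696 to 25030. The part of these cell types in the differences of the 8 genes was not tested.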

How the data were processed

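Total RNA from the FCtx of each mouse was labelled and hybridized to 1 Illumina MouseRef-8 v2.0 array. The authors deposited a table that is not normalized. The intensities the authors deposited average the beads of a probe on an array, on a linear scale. The detection p-value the authors deposited sets each probe against negative control beads. Other values that the authors deposited are bead numbers and the standard error among beads. Software versions and the background step are not given in the sources used here. The submitters' processing notes name lumi and limma. The authors' methods name variance stabilization and quantile normalization by lumi, steps that were repeated here from the signals they deposited. Every column was matched to its mouse by its label, and 0 columns had no sample.

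Signals were transformed with a variance-stabilizing transform written after that of lumi, and were quantile-normalized with R 4.3.3. The probes found at a detection p under 0.01 on at least 24 of 32 arrays were tested with limma 3.58.1 across all 10187 such probes, with Benjamini-Hochberg adjustment, and called at an adjusted p below 0.01. Ethanol minus control had no covariate, and even minus odd position had chip as a block. A gene is given by its brightest probe. Correlations used values centred within the 5 combinations of chip and treatment, with 100000 permutations within them. They were computed with scipy 1.17.1, numpy 2.4.6 and pandas 2.3.3 in Python 3.11.15. Figures were drawn with matplotlib 3.10.9. The transform, the limma tests and the permutation test were tested on simulated data. The named genes are the 8 genes, the called genes of the marker lists and, for each class mean, the 10 genes with the highest correlation. Genes of those lists that are given by detection or correlation were named after their values were seen. The genes and lists were chosen with earlier results of these data known. The number of arrays limits the precision. Pairs of normalized arrays correlated between 0.982 and 0.995. Alternatives were log2, normexp with an offset of 16, median scaling, other presence filters, chip and position as terms, array weights, subsets of chips and leaving out arrays.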

Additional observations from a re-analysis of the deposited data

Results flagged for a closer look

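Of 40 sets of 4 to 8 arrays tested for a sample far from the others, 1 held one. Doc2g in ethanol-treated mouse A46 was 7.90 on the normalized log2 scale, the lowest of the 4 ethanol-treated mice of chip 3, and the nearest of the other 3 was at 8.54. Chance flags about 1 in 20 such sets. Dropping A46 left 5 of the 8 genes called on chip 3, while the number of all probes called there fell, as given below.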

How the results depend on the processing

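The absence of calls among the 8 genes between ethanol-treated mice and controls, and between even and odd positions, held under every alternative run over all or several chips. Chip 3 alone called 5 of the 8 between treatments. Th, at -0.02 over all arrays, changed sign under normexp (0.0031), median scaling (0.022), chip as a fixed block (0.19), chip as a random block (0.029) and on chip 3 alone (0.19). Nmb, at 0.02, changed sign with position as a covariate (-0.029), array weights (-0.014), chips 1 and 2 against chip 4 (-0.081) and without C66 (-0.0069), and chips 1 and 2 against chip 4 also turned Sp8 (-0.0036) and Trh (-0.025). The cause was not tested. On chip 3 normexp left 0 genes and 21 of 247 probes called, and chip as a block over all 32 arrays left 0 genes and 6 probes. Leaving out 1 array at a time gave 1 to 5 genes and 30 to 279 probes. The probe counts moved by over 1.5 times without C56 (116), A46 (113), A47 (59), C54 (52), A49 (38) and C55 (30).

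Probes called between treatments were 817, and 147 with median scaling, 6 with chip as a fixed block, 55 with chip as a random block, 0 with chip and position and 247 on chip 3. At even minus odd the 283 became 0 with median scaling, 453 with all 32 arrays, 5 on chips 1 and 2 and 0 on chip 1, chip 2 or chip 4 alone. Chip 1 alone turned Dlx1 (0.16), Doc2g (0.14), Nmb (0.13), Pcdh21 (0.11), Scgn (0.22), Sp8 (0.11) and Th (0.13) positive. Chip 2 minus chip 1 called 1, and 0 with normexp and 573 with median scaling, which shifted the median of all probes by 0.137. Chip 4 minus chip 3 in controls called 334, and 204 with normexp, 5 with median scaling, 51 with position as a covariate and 806 with array weights. The median pair correlation of 0.867 was 0.876 with normexp, 0.859 without centring, 0.849 with position centred, 0.912, 0.903 and 0.918 on chips 1, 2 and 4, 0.852 as rank correlation and 0.859 without C66. The correlation of the class means stayed between 0.926 and 0.976. Leaving out C66, chips 1 and 2 each alone at even minus odd, the block beside chip 3 alone, the chip 3 contrast against the other chips and other scalings of the position term were chosen after seeing the data. No paired analysis was possible because the groups share no mouse numbers. Values near background, where Th, Sp8, Scgn and Nmb often lay, limit what the arrays can show.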
